A study of Mus musculus with 24 samples.

Results

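Mir221 and Mir222 are a pair of neighbouring mouse miRNA genes. They were taken by name from the counts of 24 small RNA libraries, and are 2 of 4408 features counted, of which 254 were miRNA precursors. Each gene stood on 1 feature, and every library held reads of both. The libraries came from CD4+ T cells of spleen and lymph nodes of wild-type C57BL/6 mice, and from the extracellular vesicles (EVs) those cultures released into their medium. Cells and EVs were profiled in 4 conditions with 3 libraries each, which gave 8 groups. Before harvest, resting cultures passed through 2 days of stimulation, 1 day of expansion and 2 days of rest with IL2, so the resting cells were formerly activated cells and not naive ones. Stimulated cultures received antibodies that engage the T cell receptor and its co-receptor, plate-bound, over 3 days: anti-CD3 at 2 µg/ml together with anti-CD28 at 5 µg/ml. DMSO cultures were stimulated for 3 days with the solvent, and GW4869 cultures were stimulated for 3 days with an inhibitor of neutral sphingomyelinase, an enzyme used by cells to make one kind of EV. Antibody doses for these last 2 conditions, the dose of GW4869 and the number of mice behind a library are not given in the sources used here.

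A miRNA gene is transcribed into a hairpin that is cut to a short mature strand, which guides Argonaute proteins to mRNAs that pair with its seed, the bases near its 5′ end. miR-221 and miR-222 come from one primary transcript and share their seed. They are best known for repressing the cell cycle inhibitor p27 (Cdkn1b) and the stem cell factor receptor Kit, and they have been described as growth-promoting miRNAs in several cell types.

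The mature strands are shown because the shared seed, in capitals (bases 2 to 8), puts both genes in one target family. The sequences are RefSeq's for GRCm38.p6.

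mmu-miR-221-3p: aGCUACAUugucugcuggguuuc

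mmu-miR-222-3p: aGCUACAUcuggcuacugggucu

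mmu-miR-221-5p: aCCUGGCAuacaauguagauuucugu

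Both 3p strands are 23 bases long. Their leading 8 bases are identical, and over the whole length 11 positions are identical and 12 differ. Among the 1738 mature mouse miRNAs of the RefSeq table, 1 other, miR-1928, carries the same seed, and its gene was not among the counted features. The 5p strand of Mir221 has another seed. The hairpins show where the mature strands lie, again with the mature strands in capitals.

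Mir221 hairpin: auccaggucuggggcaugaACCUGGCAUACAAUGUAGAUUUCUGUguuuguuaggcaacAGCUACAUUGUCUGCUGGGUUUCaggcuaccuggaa

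Mir222 hairpin: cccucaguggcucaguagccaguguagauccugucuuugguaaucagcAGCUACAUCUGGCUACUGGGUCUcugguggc

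In GRCm38, Mir221 (ENSMUSG00000065422.1) spans chrX:19146294-19146388 and Mir222 (ENSMUSG00000065471.1) spans chrX:19146893-19146971, both on the minus strand. The hairpins are 95 and 79 bases long and are separated by 504 bases. GENCODE M21 lists 0 other genes over the cluster, so the hairpins lie outside annotated exons and introns of other genes. The nearest gene, Gm14636, lies 10010 bases away. The counts were given per precursor, so the 5p and 3p strands could not be separated.

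Library totals ranged from 1290918 counts in a library of GW4869 EVs to 3231626 in one of resting EVs. Between 17.8% and 54.45% of the counts were miRNA counts: resting cells held 53.53% to 54.45% and their EVs 50.08% to 52.68%, whereas stimulated cells held 35.33% to 39.82% and their EVs 32.47% to 33.58%. A level is therefore given on a pair of scales. The first is counts per 1000000 counts with TMM scaling (CPM), which sets libraries to a common level over all features; the second is the percent of the library's miRNA counts, over 242 miRNA features with distinct counts. DMSO EV replicate 2 stood apart from the other DMSO EV libraries, with 31.06% of its counts in miRNAs against 21.51% and 25.9% and a TMM factor of 1.09 against 1.46 and 1.53, and values without it are given where it changes a call. The labels do not say that replicates came from separate mice or cultures, so p-values measure only the spread between these libraries, which may be technical.

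Both miRNAs were of middle abundance. Mir221 had 82 to 970 counts per library and ranked from 81 to 161 among the 242 miRNAs, and Mir222 had 83 to 753 counts and ranked from 85 to 151. An exact Poisson 95% interval for the lowest Mir221 count ran from 65.2 to 102 reads, and intervals of this kind cover counting error only.

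Mir221 stood at 443, 480.2 and 510.2 CPM in the 3 libraries of resting cells. Resting EVs held 528, 516 and 508 CPM of Mir221. These were the 2 groups with the highest means, 478 ± 33.6 in cells and 517 ± 10.1 in EVs (SD, n = 3), and their ranges overlapped. Stimulated cells held 103, 90.5 and 111 CPM of Mir221, and stimulated EVs 88.5, 102 and 120.5 CPM. Every stimulated library lay far below every resting one, and stimulated cells and EVs overlapped.

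With the solvent, Mir221 was at 109, 119 and 82.2 CPM in cells and at 64.9, 81.5 and 62.1 CPM in EVs. With GW4869 it was at 56.7, 71.3 and 56.3 CPM in cells and at 47.8, 48.9 and 33.5 CPM in EVs. GW4869 EVs held the least of all groups, 43.4 ± 8.63 CPM (SD, n = 3). In order of their means the groups ran resting EVs, resting cells, stimulated EVs (104), DMSO cells (104), stimulated cells (101), DMSO EVs (69.5), GW4869 cells (61.4) and GW4869 EVs. Of the neighbours in this order, only resting cells and stimulated EVs, stimulated cells and DMSO EVs, and GW4869 cells and GW4869 EVs had ranges that did not overlap.

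Mir222 followed a like course. It stood at 386, 433 and 431 CPM in resting cells, and at 513, 413 and 394 CPM in resting EVs. Stimulated cells held 89.7, 112 and 96.6 CPM and stimulated EVs 72.5, 72.5 and 94.7 CPM. As for Mir221, no stimulated library reached the level of a resting one.

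In the cultures with solvent, Mir222 was at 94.96, 98.8 and 103 CPM in cells and at 39.65, 88.55 and 48.3 CPM in EVs, where replicate 2 is the high value. GW4869 cells held 68.6, 61.0 and 62.3 CPM and GW4869 EVs 43.0, 30.8 and 34.7 CPM. By their means the groups ran resting EVs (440.1), resting cells (417), stimulated cells (99.4), DMSO cells (98.8), stimulated EVs (79.9), GW4869 cells (64.0), DMSO EVs (58.8) and GW4869 EVs (36.1). Neighbours overlapped except resting against stimulated cells, DMSO cells against stimulated EVs and stimulated EVs against GW4869 cells.

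**Figure D1:**
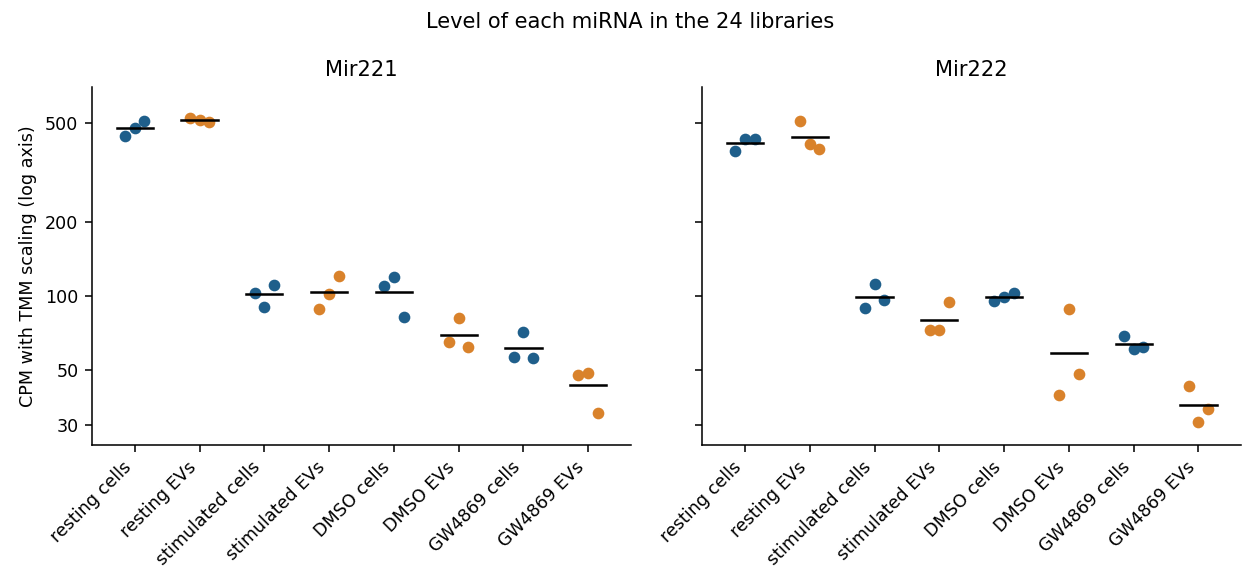
Level of Mir221 and Mir222 in CPM with TMM scaling (log axis) in each of the 24 libraries. Points are libraries, blue for cells and orange for EVs, and lines are group means (n = 3). The resting libraries sit between 386 and 528 CPM and all others between 30.8 and 120.5 CPM.

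Both miRNAs were several-fold lower in stimulated than in resting cultures, in cells as in EVs. These cultures differed in more than the antibodies, since resting ones also passed through expansion and rest with IL2 (above). The parts of these differences cannot be told apart here. In cells, Mir221 was 4.71-fold lower in stimulated than in resting cultures, a log2 fold change of -2.24 ± 0.20 (SE; edgeR's quasi-likelihood test, Benjamini-Hochberg adjusted p = 7.16e-10). Mir222 was 4.2-fold lower in the same cells, with a log2 fold change of -2.07 ± 0.23 (adjusted p = 4.15e-08 by edgeR's test). In this comparison 46.1% of the 4408 features were called and 23.1% were called lower, and 57.4% had groups that did not overlap in CPM. Calls were thus common, and the size of the change was what placed the pair: only 13 of the other miRNAs had a lower fold change than Mir221 and only 16 one lower than Mir222, against a median of -0.62 over the miRNAs.

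In EVs, Mir221 was 4.99-fold lower in stimulated than in resting cultures, a log2 fold change of -2.32 ± 0.20 (edgeR's quasi-likelihood test, adjusted p = 3.52e-10). Mir222 was 5.51-fold lower in the same EVs, a log2 fold change of -2.46 ± 0.23 (edgeR, adjusted p = 2.07e-09). Here 54.1% of features were called and 61.8% did not overlap in CPM, and 78.9% of the miRNAs were called lower. Of the other miRNAs, 24 had a lower fold change than Mir221 and 17 one lower than Mir222, and the miRNA median was -1.17.

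The difference was called under every alternative tried, but its size depended on the scaling, as the plot of fold changes under 4 scalings shows. Scaling by library totals moved the median of all features by 0.83 in cells and 1.12 in EVs on the log2 scale. With it Mir221 stood at -1.41 in cells and -1.21 in EVs, and Mir222 at -1.26 and -1.36. Setting the miRNAs alone to a common level left -1.17 and -0.85 for Mir221 and -1.03 and -1 for Mir222. The share of all counts in miRNAs moved with this comparison (above), and its part in the size of the difference was not tested.

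Solvent-treated stimulated cultures gave values of the same order against the same resting libraries. For Mir221 the log2 fold change of DMSO against resting cultures was -2.20 ± 0.20 in cells (edgeR, adjusted p = 1.87e-09) and -2.90 ± 0.20 in EVs (edgeR, adjusted p = 1.10e-11). For Mir222 these values were -2.08 ± 0.23 (edgeR, adjusted p = 5.49e-08) and -2.91 ± 0.24 (edgeR, adjusted p = 1.35e-10). The shares of features called were 39.9% in cells and 56.8% in EVs. Because the resting libraries serve in both comparisons, they are not independent of each other.

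**Figure D2:**
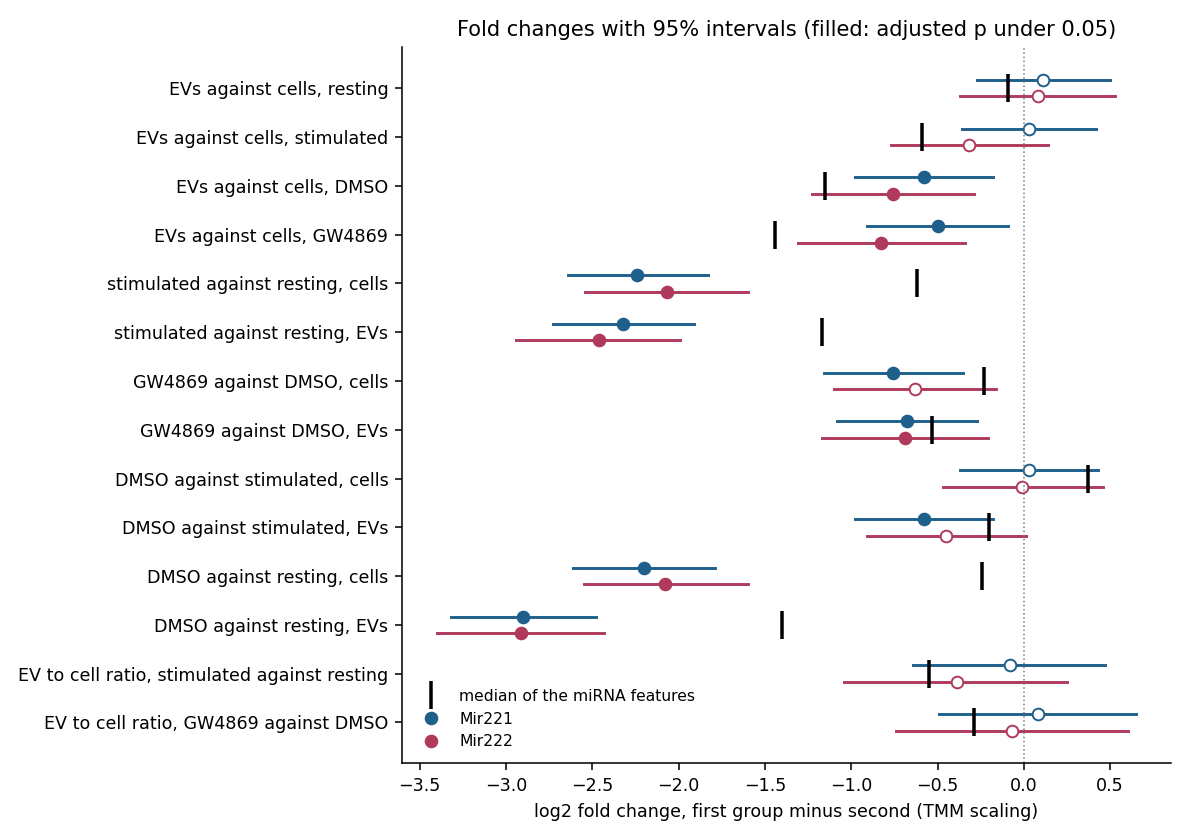
Log2 fold change with its 95% interval for Mir221 (blue) and Mir222 (red) in each comparison, first group minus second, with TMM scaling; filled points have an adjusted p under 0.05 and black bars mark the median over miRNA features. For stimulated or DMSO against resting, in cells or in EVs, both points lie at -2.07 or lower, left of the miRNA median. In the EV-to-cell comparisons they lie right of it.

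Relative to other miRNAs, both members took a larger share in EVs than in the cells that released them. Mir221 made up 0.0688%, 0.0671% and 0.0581% of miRNA counts in resting EVs against 0.0470%, 0.0512% and 0.0566% in resting cells. In stimulated cultures it made up 0.0407%, 0.0446% and 0.0460% in EVs against 0.0288%, 0.0208% and 0.0351% in cells. The EV libraries were above the cell libraries without overlap in both conditions. How many of the other miRNAs separated or rose in share was not counted, for this or the conditions below. In resting cultures 76 of the other miRNAs had a higher fold change of EVs against cells than Mir221, and 84 a higher one than Mir222.

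With the solvent, Mir221 made up 0.0450%, 0.0294% and 0.0375% of miRNA counts in EVs and 0.0231%, 0.0264% and 0.0206% in cells. With GW4869 it made up 0.0351%, 0.0345% and 0.0326% in EVs and 0.0177%, 0.0199% and 0.0138% in cells. Again no EV library was as low as a cell library. The ratio of the EV mean to the cell mean was 1.25 in resting, 1.55 in stimulated, 1.6 in DMSO and 1.99 in GW4869 cultures. Over the 4 conditions the EV share was higher by 0.0149 percentage points (exact stratified permutation test, two-sided, p = 1.25e-05, the smallest that 160000 arrangements allow, adjusted p = 0.00015 over 12 tests).

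For Mir222 the mean share in EVs and cells was 0.0552% ± 0.0109 and 0.0450% ± 0.00357 in resting cultures, with overlap (SD, n = 3 each). It was 0.0338% ± 0.00228 and 0.0271% ± 0.00302 in stimulated, 0.0296% ± 0.00224 and 0.0226% ± 0.00295 in DMSO and 0.0290% ± 0.00644 and 0.0179% ± 0.00317 in GW4869 cultures. In these 3 conditions the EV and cell libraries did not overlap. The ratios of means were 1.23, 1.24, 1.31 and 1.62 in the order resting, stimulated, DMSO and GW4869. Over all conditions the EV share of Mir222 was higher by 0.00875 percentage points (exact stratified permutation test, two-sided, p = 0.000112, adjusted p = 0.000675), with EVs higher in 4 of 4 conditions.

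**Figure D3:**
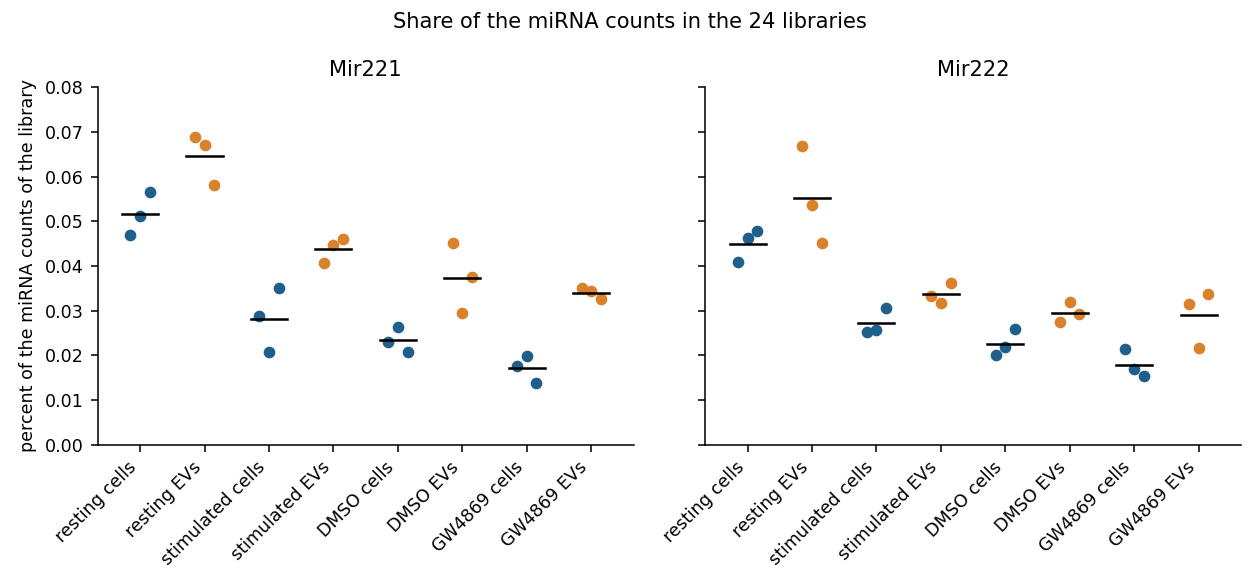
Share of each miRNA in the miRNA counts of a library, in percent, for all 24 libraries; points are libraries, blue for cells and orange for EVs, and lines are group means (n = 3). In every condition the mean of the EVs lies above that of the cells, from 1.23 to 1.99 times.

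On the CPM scale the same EV and cell libraries gave another picture, since miRNAs as a class were lower in the EVs of the stimulated cultures. In resting cultures the log2 fold change of EVs against cells was 0.11 ± 0.19 for Mir221 (95% interval -0.27 to 0.50; edgeR, adjusted p = 0.699) and 0.08 ± 0.22 for Mir222 (-0.37 to 0.53; edgeR, adjusted p = 0.837). In stimulated cultures it was 0.03 ± 0.19 for Mir221 (edgeR, adjusted p = 0.905) and -0.32 ± 0.22 for Mir222 (edgeR, adjusted p = 0.24). None of these 4 values passed the test, while 34.3% of features did in resting and 53.5% in stimulated cultures. Only 14 of the other miRNAs had a higher fold change than Mir221 in stimulated cultures, where the miRNA median was -0.59. The Mir221 value there took the other sign with RLE scaling (-0.09), and was called higher in EVs with library totals (0.46 ± 0.18; edgeR, adjusted p = 0.0367).

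In DMSO cultures both were called lower in EVs, with log2 fold changes of -0.58 ± 0.19 for Mir221 (edgeR, adjusted p = 0.0109) and -0.76 ± 0.23 for Mir222 (edgeR, adjusted p = 0.00514). In GW4869 cultures the values were -0.50 ± 0.20 (edgeR, adjusted p = 0.0288) and -0.83 ± 0.23 (edgeR, adjusted p = 0.00305). Calls were the rule here: 65.4% of all features and 93.8% of miRNAs were called in DMSO cultures, and 68.2% and 93.8% in GW4869 cultures. The CPM ranges of EVs and cells did not overlap for either member, nor for 62.8% and 70.9% of all features. The miRNA medians were -1.15 and -1.44, so both members lay above most miRNAs; 16 and 28 of the other miRNAs were higher than Mir221 and Mir222 in DMSO, and 10 and 21 in GW4869 cultures.

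These EV calls depended on the scaling. With library totals none of the 4 was called: Mir221 stood at -0.01 in DMSO and 0.25 in GW4869 cultures, and Mir222 at -0.24 and -0.06. With the miRNAs set to a common level all 4 were positive, at 0.66 and 0.95 for Mir221 and 0.38 and 0.64 for Mir222, and all but Mir222 in DMSO cultures were called higher. Single libraries mattered for Mir221: its value in DMSO cultures was -0.47 without DMSO cell replicate 2 (edgeR, adjusted p = 0.0662). In GW4869 cultures it was -0.38 without cell replicate 2, -0.48 without EV replicate 1, -0.48 without EV replicate 2 and -0.24 without EV replicate 3, and was not called in any of these. For Mir222 in DMSO cultures, the value was -1.17 without DMSO EV replicate 2 (edgeR, adjusted p = 1.63e-05). When the model held only the 2 groups compared, Mir221 was at -0.63 in DMSO cultures (edgeR, adjusted p = 0.0709) and at -0.57 in GW4869 cultures (edgeR, adjusted p = 0.0606).

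The EV-to-cell ratio itself was compared between conditions. Between stimulated and resting cultures its log2 value differed by -0.08 ± 0.27 for Mir221 (95% interval -0.64 to 0.47; edgeR, adjusted p = 0.838) and by -0.39 ± 0.31 for Mir222 (-1.04 to 0.25; edgeR, adjusted p = 0.345). Between GW4869 and DMSO it differed by 0.08 ± 0.28 for Mir221 (-0.49 to 0.65; edgeR, adjusted p = 0.885) and by -0.07 ± 0.33 for Mir222 (-0.74 to 0.60; edgeR, adjusted p = 0.923). None of the 4 values passed the test, whereas 35.8% of features passed it for stimulation and 7.58% for GW4869.

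**Figure D4:**
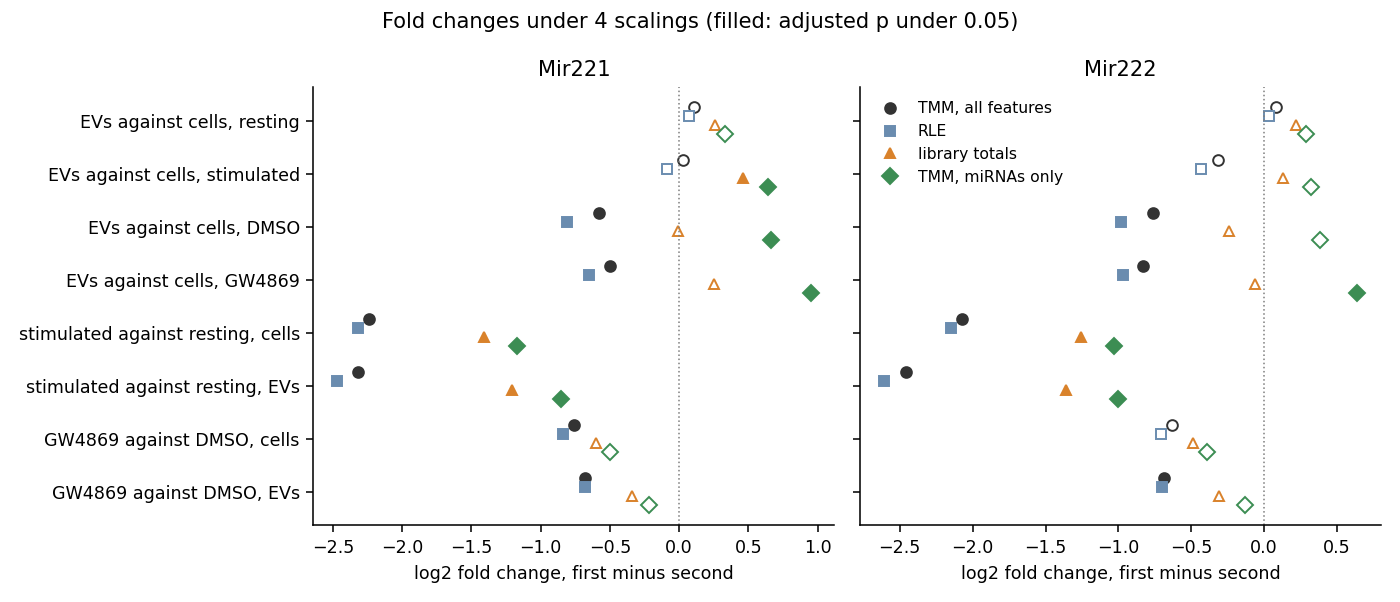
Log2 fold changes of Mir221 and Mir222 under 4 scalings: TMM over all features (black), RLE (blue), library totals (orange) and TMM over miRNAs only (green); filled symbols have an adjusted p under 0.05. The stimulated-against-resting points lie left of 0 under all 4, from -0.85 to -2.61, while the EV-to-cell points in DMSO and GW4869 cultures lie on both sides of 0.

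The study's inhibitor was compared with its solvent. In cells, Mir221 was 1.69-fold lower with GW4869, a log2 fold change of -0.76 ± 0.20 (edgeR's quasi-likelihood test, adjusted p = 0.035), and the 3 GW4869 libraries lay below the 3 DMSO libraries. Mir222 had a like value, -0.63 ± 0.23, that did not pass the test (95% interval -1.10 to -0.16; edgeR, adjusted p = 0.182), although its libraries did not overlap either. Few features were called in this comparison: 2.99% were called and 20.1% did not overlap, and 5 of the 4408 features, 0.113%, were called lower. Besides Mir221 these were Mir466f-1 (-1.17), Mir147 (-1.03), a fragment of tRNA-Lys-CTT-3-1 (-1.10) and the protein-coding gene AA467197 (-1.04), which were named after their values were seen.

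The Mir221 call in cells did not hold up well. It was lost with library totals (-0.60 ± 0.19; edgeR, adjusted p = 0.0667), with miRNA-only scaling (-0.50; edgeR, adjusted p = 0.186), with only the groups compared in the model (-0.75; edgeR, adjusted p = 0.0669) and with only the 12 DMSO and GW4869 libraries (-0.89; edgeR, adjusted p = 0.277). It was also lost without DMSO cell replicate 1 (-0.71) or 2 (-0.64) and without GW4869 cell replicate 1 (-0.70) or 3 (-0.70). The direction was the same in each. With the 12 libraries alone 6 of 4408 features were called, against 132 in the main model, and with only the groups compared 117 of 4145.

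In EVs, both members were lower with GW4869, with log2 fold changes of -0.68 ± 0.20 for Mir221 (edgeR, adjusted p = 0.0222) and -0.69 ± 0.23 for Mir222 (edgeR, adjusted p = 0.0403). The background was 17.6% of features called, and 19% of miRNAs called lower, with a miRNA median of -0.53. The libraries did not overlap for Mir221 and did for Mir222, and 27.7% of features did not overlap. Both calls were lost with library totals (-0.34 and -0.31), with miRNA-only scaling (-0.22 and -0.13), with only the groups compared (-0.65 and -0.66) and with the 12 DMSO and GW4869 libraries alone (-0.67 and -0.69). Mir222 was not called with the replicate block (-0.68 ± 0.24; edgeR, adjusted p = 0.0535) or with a minimum count of 50 (-0.58; edgeR, adjusted p = 0.063).

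Single EV libraries also ended these calls. Without DMSO EV replicate 2, Mir221 stood at -0.55 and Mir222 at -0.29. Without GW4869 EV replicates 1, 2 and 3 in turn, Mir221 stood at -0.64, -0.64 and -0.39 and Mir222 at -0.72, -0.45 and -0.53. As a share of miRNA counts, cells and EVs together, Mir221 differed between GW4869 and DMSO by -0.00476 percentage points (exact stratified permutation test, adjusted p = 0.146) and Mir222 by -0.00262 (exact permutation, adjusted p = 0.367).

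The solvent itself was checked against plain stimulation. In cells, Mir221 differed by 0.03 ± 0.19 (95% interval -0.37 to 0.43; edgeR, adjusted p = 0.922) and Mir222 by -0.01 ± 0.23 (-0.47 to 0.46; edgeR, adjusted p = 0.988), where 29% of features were called. In EVs, Mir221 was lower with DMSO, at -0.58 ± 0.19 (edgeR, adjusted p = 0.03) and Mir222 had a value of -0.45 ± 0.23 (edgeR, adjusted p = 0.155), where 23.5% of features were called. The Mir221 call was lost with miRNA-only scaling (-0.33), with only the groups compared (-0.57), and without stimulated EV replicate 2 (-0.59) or 3 (-0.46) or DMSO EV replicate 1 (-0.53) or 3 (-0.50). With only the groups compared, 349 of 4381 features were called. For Mir222, leaving out DMSO EV replicate 2 moved the value to -0.86 ± 0.19, which was called (edgeR, adjusted p = 0.00186). Judged from 1 feature on repeated lines, the 2 sets of libraries may have been counted apart, in which case solvent and counting cannot be told apart here.

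Among miRNA counts, the share of both members was lower in stimulated than in resting cultures. Over cells and EVs, the share of Mir221 differed by -0.0221 percentage points between stimulated and resting cultures and that of Mir222 by -0.0197 (exact stratified permutation tests, two-sided, p = 0.005 for each, the smallest that 400 arrangements allow, adjusted p = 0.015). The stimulated mean was 0.547 of the resting mean in cells and 0.677 in EVs for Mir221, and 0.603 and 0.611 for Mir222. No stimulated library overlapped a resting one of its kind. In CPM, 70.2% of miRNAs in cells and 87.2% in EVs did not overlap in this comparison. How many separated as a share of miRNA counts was not counted. In these bulk libraries, fewer cells that express a miRNA and less of it per cell cannot be told apart.

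The balance between both precursors was close to even in most libraries. Mir221 took from 44.44% to 62.09% of the summed Mir221 and Mir222 counts, and was the larger in 18 of 24 libraries. The exact (Clopper-Pearson) 95% interval of this share included 50% in 13 libraries. Counts were not divided by length, and the mean log2 ratio of 0.18 (SD 0.27 over the 24 libraries) is one of counts.

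By group, the Mir221 percentage was 53.4 ± 0.821 in resting cells, 54.2 ± 3.02 in resting EVs, 50.5 ± 5.01 in stimulated cells and 56.5 ± 1.8 in stimulated EVs (SD, n = 3). It was 50.9 ± 5.62 in DMSO cells, 55.4 ± 7.12 in DMSO EVs, 48.9 ± 4.47 in GW4869 cells and 54.4 ± 6.33 in GW4869 EVs. In 4 of 4 conditions the EVs had the higher mean, by 0.25 in log2 ratio, but this did not pass after adjustment over the 12 tests (exact stratified permutation test, p = 0.0342, adjusted p = 0.0684). For stimulation (-0.02), GW4869 (-0.09) and DMSO (-0.02) the log2 ratio differed with exact permutation p = 0.805, 0.635 and 0.905.

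**Figure D5:**
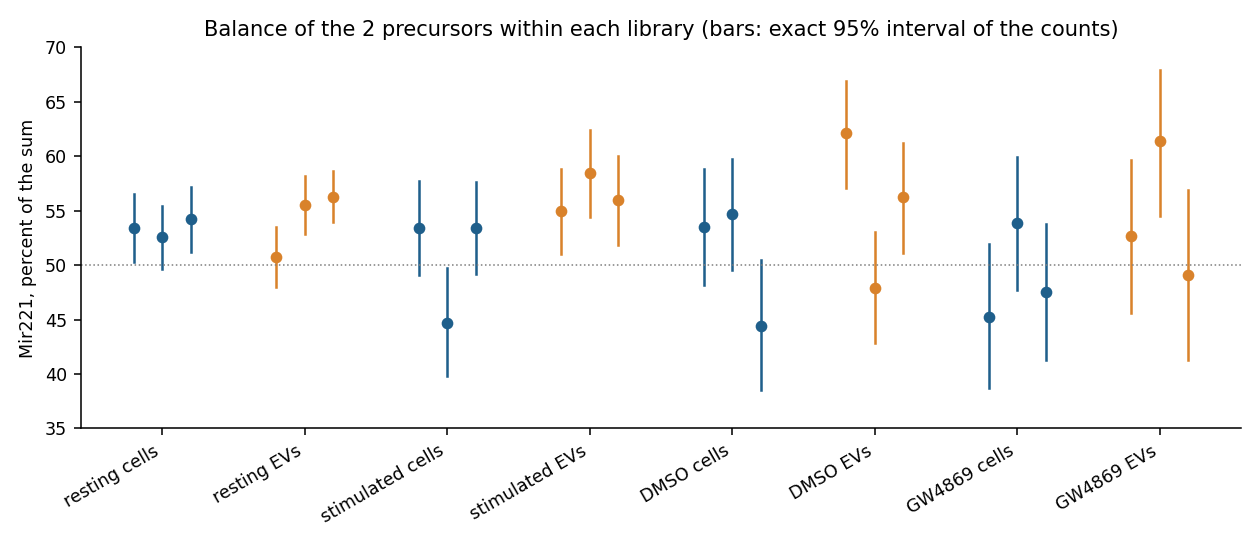
Mir221 as a percentage of the summed Mir221 and Mir222 counts in each library, with the exact 95% interval of the counts; blue marks cells, orange EVs, and the dotted line 50%. The values run from 44.44% to 62.09%, with intervals that cross 50% in 13 of 24 libraries.

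The constancy of this ratio was set beside that of other close pairs. The files held 159 pairs of miRNA genes whose starts lay at most 2000 bases apart. Over the 8 groups the mean log2 ratio of Mir221 to Mir222 ranged over 0.44, and 139 of the pairs had a larger range, with a median of 0.80. The SD over the libraries, 0.27, was the 26th smallest of the pairs, whose median was 0.39. Many of the pairs were of related Mir466, Mir467 and Mir669 genes on chromosome 2, with lowest counts down to 4, and pairs could share a gene. Pairs with high counts lay on both sides of Mir221 and Mir222. The range was 0.40 for Mir17 and Mir20a (lowest count 5820) and 1.75 for Mir20a and Mir19b-1 (lowest count 4359).

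Mir222 was also the miRNA whose pattern was most like that of Mir221, with a Pearson r of 0.977 between log2 CPM values over the 24 libraries. Next came Mir26b (r = 0.974), Mir26a-1 (0.958), Mir26a-2 (0.953) and Mir28a (0.948). Mir26a-1 and Mir26a-2 had nearly equal levels (means of 3362 and 3300 CPM in resting cells) and may share reads. For Mir222 the order was Mir221, Mir140 (0.977), Mir342 (0.969), Mir26b (0.963) and Mir30c-1 (0.958). These coefficients are descriptions over libraries that share the same groups and scaling, and most of the spread lies between resting and other libraries.

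The most alike features outside the miRNAs were Ctdsp1 (r = 0.974), Ctdspl (0.957) and Ctdsp2 (0.953) for Mir221, and Wwp2 (0.980), Evl (0.968) and Ctdsp1 for Mir222. Each of these genes contains a miRNA just named (Mir26b in Ctdsp1, Mir26a-1 in Ctdspl, Mir26a-2 in Ctdsp2, Mir140 in Wwp2 and Mir342 in Evl), and their CPM values were nearly the same as those of that miRNA. For example, Mir26b and Ctdsp1 were at 3954 and 3955 CPM in resting cells and at 835.0 and 836 CPM in stimulated cells. They are not separate evidence.

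The pair was set among miRNAs known for T cell states, on lists chosen with earlier results of these data known. Some listed genes may share reads, such as Mir26a-1 and Mir26a-2 (-2.82 and -2.83 in stimulated against resting cells). Members of a list may therefore not be separate observations. Of 15 miRNAs known from naive and resting T cells, 14 were lower and 0 higher in stimulated than in resting cells, with a median log2 fold change of -1.75, against -0.62 for all miRNAs and -0.05 for all features; 47.9% of all miRNAs were called lower and 8.68% higher. Mir150, a miRNA abundant in mature lymphocytes, had -3.95 ± 0.24 (edgeR, adjusted p = 5.81e-13), and Mir26b had -2.24 ± 0.19 (edgeR, adjusted p = 2.18e-10), the same value as Mir221. Mir29a was lower too, at -1.80 ± 0.26 (edgeR, adjusted p = 2.16e-06), and Mir101b, at -0.23 ± 0.24, was the one not called (edgeR, adjusted p = 0.471). In EVs 13 of the 15 were called lower, near the 78.9% of all miRNAs called lower there, with a median of -1.86 against -1.17. With library totals 11 of the 15 were lower and 1 higher in cells, with a median of -0.94, and with miRNA-only scaling 9 were lower and 1 higher, with a median of -0.71.

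Of 16 miRNAs known to be induced by T cell activation, 5 were higher, 7 lower and 4 not called in stimulated cells, with a median of -0.17 against -0.62 for all miRNAs (8.68% called higher, 47.9% lower). This median turned with the scaling: library totals gave 0.64 (9 higher, 5 lower) and miRNA-only scaling gave 0.87 (11 higher, 4 lower). Mir155, an activation-induced miRNA of lymphocytes, was higher, at 1.66 ± 0.18 (edgeR, adjusted p = 2.05e-08), whereas Mir21a was lower, at -1.42 ± 0.30 (edgeR, adjusted p = 0.000271). Mir17 and Mir92-1, of the growth-associated Mir17 cluster, had 0.01 ± 0.17 and -0.33 ± 0.24 and were not called (edgeR, adjusted p = 0.981 and 0.283). Thus the fold changes of Mir221 and Mir222, at -2.24 and -2.07 on the log2 scale, lay below the median of either list, as they did under the other 3 scalings. In EVs of stimulated cultures 2 of these 16 were called higher and 14 lower, beside 2.89% and 78.9% of all miRNAs, and the list median of -0.89 lay above the miRNA median of -1.17. It was 0.22 with library totals and 0.58 with miRNA-only scaling.

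The other X-linked miRNAs were given as a chromosomal comparison. Of 24, 14 were lower and 1 higher in stimulated cells, with a median log2 fold change of -0.74 and a range from -2.71 to 3.78. Of all miRNAs 47.9% were called lower, with a median of -0.62, and the pair lay toward the low end of the X-linked range. The list median was 0.07 with library totals and 0.30 with miRNA-only scaling. Mirlet7f-2, of the let-7 family, was lower by 1.40 (SE 0.24; edgeR, adjusted p = 2.00e-05). Mir20b, of the cluster related to Mir17, had -0.30 ± 0.18 and was not called (edgeR, adjusted p = 0.181). Of its cluster, Mir19b-2 was lower, at -0.66 ± 0.19 (edgeR, adjusted p = 0.00626), and Mir92-2, at -0.28 ± 0.23, was not called (edgeR, adjusted p = 0.347). In EVs, 22 of the 24 were called lower, beside 78.9% of all miRNAs, with a median of -1.45. That median was -0.34 with library totals and 0.02 with miRNA-only scaling.

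Of 17 genes described as mRNA targets of miR-221 and miR-222, 6 were among the counted features. Small RNA libraries hold fragments of such transcripts, so these values are not mRNA levels, and Cdkn1b was not among them. In stimulated against resting cells 1 was called higher and 2 lower, where 46.1% of all features were called. Bcl2l11, which encodes a pro-apoptotic protein, was at 1.78 ± 0.28 (edgeR, adjusted p = 7.38e-06), but at 0.17 ± 0.30 in DMSO against resting cells (edgeR, adjusted p = 0.716). Ets1, a lymphocyte transcription factor, was at -0.82 ± 0.23 (edgeR, adjusted p = 0.00451) and, with solvent, at -0.63 ± 0.24 (edgeR, adjusted p = 0.0355). Esr1, the estrogen receptor, was at -1.02 ± 0.32 (edgeR, adjusted p = 0.0111) and at -0.78 ± 0.33 (edgeR, adjusted p = 0.0607). With library totals neither Ets1 nor Esr1 was called in stimulated cells, where 1 gene was higher and 0 lower. The other 3, Kit, Foxo3 and Ppp2r2a, were not called in cells.

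In stimulated against resting EVs, where 54.1% of features were called, 2 of the 6 were called higher and 1 lower, with a median of 0.37. With library totals 5 were higher and 1 lower (median 1.51), and miRNA-only scaling gave the same counts (median 1.87). Under these 2 scalings 3306 and 3595 of the 4408 features were called. With TMM scaling Ets1 fragments were at -2.36 ± 0.23 (edgeR, adjusted p = 3.33e-09), and at -2.43 ± 0.23 with solvent (edgeR, adjusted p = 2.19e-09). Kit was at 3.24 ± 0.40 (edgeR, adjusted p = 2.15e-07) and, with solvent, at 1.45 ± 0.41 (edgeR, adjusted p = 0.00428). Foxo3 was at 3.51 ± 0.42 (edgeR, adjusted p = 1.40e-07), but at 0.49 ± 0.42 with solvent (edgeR, adjusted p = 0.334). The fragments of Bcl2l11 and Foxo3 thus had calls in the stimulated libraries that the solvent-treated ones did not share. In DMSO against stimulated cells 1 of the 6 target genes was called lower, and the lowest log2 fold change was -1.61. In EVs 2 were called lower, with a lowest value of -3.02, and 0 were called higher in cells or EVs. Of all features, 17.2% were called lower in these cells and 9.91% in these EVs. Solvent and counting may not be told apart in this comparison (above).

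Marker miRNAs were used to check the labelled cell type and to look for others. Of 7 markers of T and other blood cells, 6 were counted, and their summed level in resting cultures was 241256 to 270895 CPM (cells) and 174895 to 244673 CPM (EVs). Stimulated cultures had 81650 to 108804 CPM (cells) and 57015 to 64822 CPM (EVs). The sums with solvent were 90260 to 121338 CPM (cells) and 36367 to 71499 CPM (EVs), and with GW4869 they were 63548 to 109525 CPM (cells) and 21702 to 33804 CPM (EVs). Most of this sum was Mir142, with 208798 to 243170 CPM in resting cells and 66145 to 90665 CPM in stimulated cells. The other 5 together had 27594 to 32458 and 15505 to 18139 CPM. The members split: in stimulated against resting cells 4 were called lower and 2 higher, with Mir142 at -1.58 and Mir150 at -3.95 but Mir155 at 1.66 and Mir146 at 1.76. With library totals 4 were lower and 2 higher there, and with miRNA-only scaling 2 and 2. In EVs 2 were lower and 2 higher with TMM scaling, but 2 lower and 4 higher under either other scaling. The sums above are in CPM only. As a share of miRNA counts, Mir142 was at 23.15% to 25.8% in resting and 20.79% to 20.95% in stimulated cells. In EVs this share was 18.02% to 24.85% and 18.76% to 20.96%.

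Few markers of other cell types were among the counted features. The smallest count of any feature in any library was 4, so features low in some libraries may be missing from them. Absence of a marker therefore cannot show that it was not expressed. None of 1 myeloid, 7 stromal and smooth muscle, 1 liver and 5 muscle markers was among the counted features, and 1 of 4 erythroid and 2 of 7 epithelial markers were. Both endothelial and platelet markers, Mir126a and Mir126b, were listed with equal counts in every library, so they are 1 signal and its level is given once. It was 109.9 to 117 CPM in resting cells and 101 to 115 CPM in stimulated cells, whereas Mir221 went from at least 443 to at most 111 CPM. In EVs it was 148 to 163 CPM in resting and 78.3 to 86.0 CPM in stimulated cultures. With solvent the cells had 130.0 to 159 CPM and the EVs 47.1 to 88.55 CPM, and with GW4869 the cells had 96.7 to 141 CPM and the EVs 30.2 to 60.6 CPM.

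The epithelial sum was 88.8 to 103 CPM in resting cells and 108.5 to 141 CPM in stimulated cells, and it was 123.3 to 141 and 88.5 to 109 CPM in the EVs of the same conditions. With solvent the cells had 120.0 to 145 CPM and the EVs 43.4 to 83.7 CPM, and with the inhibitor the cells had 90.8 to 119 CPM and the EVs 35.1 to 71.5 CPM. The erythroid marker stood at 9.68 to 31.4 CPM in resting and 58.4 to 83.5 CPM in stimulated cells, and at 48.2 to 95.9 CPM in the EVs of the former and 33.1 to 71.9 CPM in those of the latter. In cells it was 42.0 to 49.8 with DMSO and 31.3 to 46.2 with GW4869, and in EVs it was 31.1 to 53.6 and 13.5 to 27.2 CPM. In stimulated against resting cells none of these markers was called lower, and the erythroid one was called higher (1.98). With library totals all of them were called higher: 2.79 for the erythroid marker, 0.74 for Mir126a and an epithelial median of 1.14. All were called higher with miRNA-only scaling too, at 3.00, 0.98 and 1.37. Of the 242 miRNAs, 59 were called higher with library totals and 95 with miRNA-only scaling. In stimulated against resting EVs Mir126a was at -0.89 ± 0.22 with TMM scaling (edgeR, adjusted p = 0.00167). This value took the other sign with library totals (0.23, not called) and with miRNA-only scaling (0.60, called higher). The part of Mir126a in the result was not tested. The erythroid Mir451a (-0.58 ± 0.34; edgeR, adjusted p = 0.155) and the epithelial Mir141 (-0.55 ± 0.27; edgeR, adjusted p = 0.0936) and Mir200c (-0.09 ± 0.25; edgeR, adjusted p = 0.77) were not called in EVs.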

How the data were processed

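Small RNA libraries of CD4+ T cells and their EVs were analysed from the count files the authors deposited, 1 per library, 24 in all. Per the file headers these hold read counts per annotated feature; the submitters' processing notes name Bowtie, GRCm38 and mm10. Versions, trimming, counting tool and the treatment of reads with several alignments are not given in the sources used here. Each file had 4441 lines, of which 33 were full repeats and were dropped, and the smallest count was 4. Dancr stood on 4 lines that combined 2 sets of values in the resting and stimulated libraries with 2 sets in the DMSO and GW4869 libraries, so the deposited counts may come from 2 separately made tables; whether the libraries were also sequenced apart is not given in the sources used here.

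All 24 libraries entered 1 model with 8 groups in edgeR 4.0.16 (R 4.3.3; TMM scaling, filterByExpr with minimum count 10, which removed 0 features, quasi-likelihood test). Benjamini-Hochberg adjustment ran over all 4408 features, and an adjusted p under 0.05 was a call. Shares and ratios were tested by exact stratified permutation (Python 3.11.15, scipy 1.17.1), two-sided, as 1 family of 12 tests. The scripts' tests were checked on simulated data. Alternatives were other scalings, filters, models, DESeq2 1.42.0 and leaving out each library; the lists were also counted under the other scalings, an alternative added after the data were seen. Names followed fixed rules: the members, the 5 miRNAs and 3 other features most alike to each, and the 4 most abundant members of each list; AA467197, Mir147, Mir466f-1, the tRNA fragment and all 6 counted target genes were exceptions. The members, lists and rules were chosen with earlier results of these data known. Same-numbered libraries deviated together in 1 comparison, DMSO against resting cells (correlations 0.255, 0.285 and 0.236). Their pairing comes from the data, not from the labels, and with the block Mir221 was at -2.21 and Mir222 at -2.08 there.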

Additional observations from a re-analysis of the deposited data

How the results depend on the processing

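Over the 28 fold changes, all kept their direction and call without the filter and without repeated features, 27 with the replicate block, 25 with RLE and with DESeq2, 24 with a minimum count of 50, 20 with only the groups compared (15 of 20 with the 12 libraries of 1 table), 16 with library totals and 14 with miRNA-only scaling; over 228 values that leave out a library or replicate number, 183 did. The cause was not tested. Outside DMSO against resting cells the numbers do not pair the libraries (for GW4869 against DMSO EVs the correlations were -0.373, 0.162 and -0.164), and the block ended 1 call, that of Mir222 there (-0.68).

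Values below are log2 fold changes, first group minus second. EVs against cells: for Mir221 in stimulated cultures -0.09 (RLE, DESeq2), -0.04 (minimum count 50; 12 libraries of 1 table), 0.46 (library totals) and 0.64 (miRNA-only), in DMSO cultures -0.01 (totals), 0.66 (miRNA-only) and -0.63 (only the groups compared), in GW4869 cultures 0.25, 0.95 and -0.57 in the same order. For Mir222 it was -0.01 in resting cultures (minimum count 50; only the groups compared), and with totals and miRNA-only scaling 0.13 and 0.32 in stimulated, -0.24 and 0.38 in DMSO and -0.06 and 0.64 in GW4869 cultures.

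GW4869 against DMSO: Mir221 in cells was -0.60 (totals), -0.50 (miRNA-only), -0.75 (only the groups) and -0.89 (1 table), and in EVs -0.34, -0.22, -0.65 and -0.67. Mir222 in EVs was -0.31, -0.13, -0.66 and -0.69, and -0.58 with a minimum count of 50. DMSO against stimulated: Mir221 in cells was -0.13 (totals) and -0.35 (miRNA-only), in EVs -0.33 (miRNA-only) and -0.57 (only the groups), and Mir222 in cells 0.13 (RLE, DESeq2).

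The EV-to-cell ratio, stimulated against resting, was 0.20 (totals) and 0.31 (miRNA-only) for Mir221 and 0.03 (miRNA-only) for Mir222. GW4869 against DMSO, it was for Mir222 0.01 (RLE), 0.02 (DESeq2), 0.18 (totals), 0.26 (miRNA-only) and 0.07 (minimum count 50; only the groups; 1 table). As a share of miRNA counts, Mir222 in DMSO against stimulated cultures passed without Mir142 in the total (-0.00544 points; exact permutation, adjusted p = 0.036) and, an alternative added after the data were seen, without Mir142 and Mir142b (-0.00717; adjusted p = 0.024).

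Leaving out 1 library gave these lowest and highest values. For Mir221 they were -0.09 and 0.13 (EVs against cells, stimulated), -0.72 and -0.47 (DMSO), -0.56 and -0.24 (GW4869), -0.90 and -0.64 (GW4869 against DMSO, cells), -0.75 and -0.39 (EVs), -0.08 and 0.17 (DMSO against stimulated, cells), -0.71 and -0.46 (EVs), -0.20 and 0.02 (ratio, stimulated against resting) and -0.03 and 0.39 (ratio, GW4869 against DMSO). For Mir222 they were -0.05 and 0.15 (EVs against cells, resting), -0.91 and -0.29 (GW4869 against DMSO, EVs), -0.08 and 0.09 (DMSO against stimulated, cells), -0.86 and -0.23 (EVs) and -0.29 and 0.34 (ratio, GW4869 against DMSO).

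Leaving out a replicate number, the share in stimulated against resting cultures ran from -0.0248 to -0.0200 points for Mir221 and from -0.0230 to -0.0172 for Mir222, with exact permutation adjusted p of 0.111 to 0.167, a design too small to pass. The log2 ratio of Mir221 to Mir222 ran from -0.0867 to 0.0449 (stimulated against resting), from -0.318 to 0.127 (GW4869 against DMSO) and from -0.135 to 0.0986 (DMSO against stimulated).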
